A study of Mus musculus with 6 samples.

Results

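Ptbp1 and Hnrnpa2b1 encode a pair of abundant nuclear RNA-binding proteins that repress exons, and their own transcripts are alternatively spliced. All rows listed under these 2 gene symbols were taken from the inclusion tables of 6 libraries and numbered by their order within the gene. This gave 2 events per gene and 4 events in all, the same number in every library, among 4658 events of 2685 genes that could be compared. Primary mouse medullary thymic epithelial cells (mTECs; CD45-, EpCAM+, Ly51-, I-A/E+), which display antigens of other tissues to developing T cells, were cultured on top of a fibrin gel that held dermal fibroblasts of human origin, and lentiviruses delivered to them a short hairpin RNA together with a GFP reporter. The hairpin targeted Raver2 (2 libraries, hairpins sh1 and sh2), Setd2 (2 libraries, hairpins sh1 and sh2) or, as control, bacterial LacZ (Ctr, 2 libraries). Infected cells (DAPI-, I-A/E+, GFP+) were sorted 5 days after infection; the labels give neither age nor strain of the mice. The inclusion frequency of splicing events, a fraction from 0 to 1, was measured to compare the effect of the knockdowns on Aire-sensitive and on neutral genes.

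PTB, the product of Ptbp1, binds pyrimidine-rich RNA and represses neighbouring exons. In human cells it also acts on its own transcript, where it promotes skipping of a coding exon and so shifts the reading frame towards a product that is degraded. Raver2 encodes an RNA-binding partner of PTB, and Setd2 encodes the methyltransferase that places a histone H3 mark along transcribed genes; in human cells that mark has been linked to PTB recruitment at some exons. The product of Hnrnpa2b1 is made in an A2 form and a longer B1 form, which differ by a short exon near the start of the protein, and like its relative hnRNP A1 it represses exons.

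The deposited tables name a gene for each event but no exon, so the exons that could be concerned are shown from the annotation only. In GENCODE M21 (mm10), Ptbp1 lies on the plus strand of chromosome 10 (79854427 to 79864771) with 16 annotated transcripts, of which 6 are protein coding and 3 are marked for nonsense-mediated decay. Hnrnpa2b1 lies on the minus strand of chromosome 6 (51460932 to 51469894) with 13 transcripts, of which 6 are protein coding and 2 are marked for decay. A cassette exon was counted where a transcript carried it and another joined its neighbours directly. Ptbp1 had 6 such exons, of 196, 31, 117, 30, 78 and 34 bases in transcript order, the first 2 of which share their 3′ end, and Hnrnpa2b1 had 3, of 36, 120 and 136 bases.

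**Figure D1:**
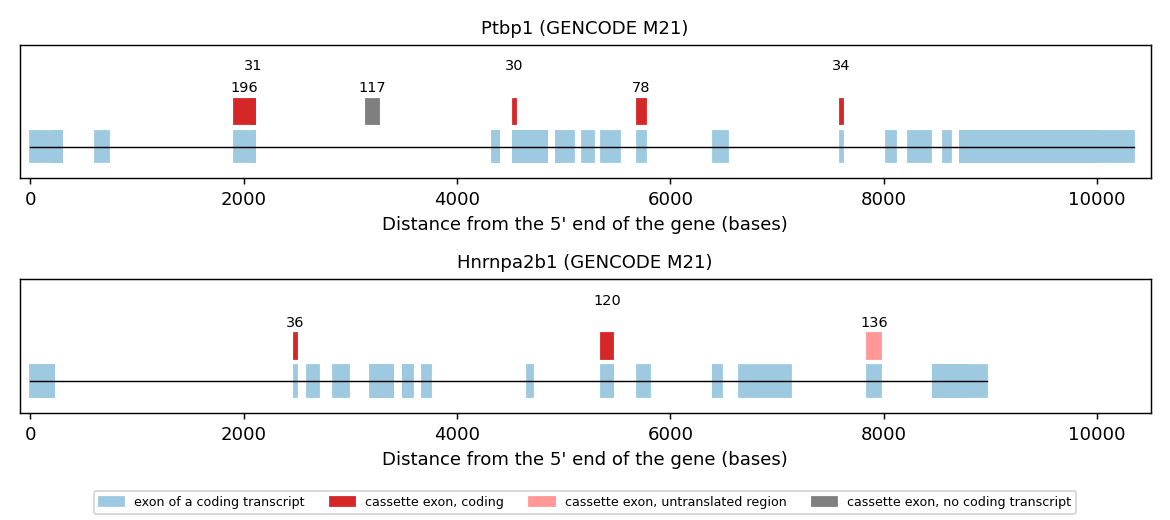
Annotated cassette exons of Ptbp1 and Hnrnpa2b1 by distance from the 5′ end of the gene in bases. Blue boxes are exons of coding transcripts and raised boxes are cassette exons with their length in bases: red for coding exons, pink for an untranslated region, grey for an exon of no coding transcript. Ptbp1 has 6 and Hnrnpa2b1 has 3, and the 2 measured events of each gene cannot be assigned to any of them.

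The 4 coding cassette exons that at least 2 annotated transcripts skip are printed to show how the alternative forms of each mRNA differ. Capitals mark the cassette exon and lower case the 12 bases on either side in the spliced transcript (GENCODE M21 transcript sequences, 5′ to 3′).
Ptbp1, 78 bases, chr10:79860117-79860194, plus strand: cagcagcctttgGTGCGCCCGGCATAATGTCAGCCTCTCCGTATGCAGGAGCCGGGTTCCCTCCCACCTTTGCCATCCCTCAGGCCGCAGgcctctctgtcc
Ptbp1, 34 bases, chr10:79862014-79862047, plus strand: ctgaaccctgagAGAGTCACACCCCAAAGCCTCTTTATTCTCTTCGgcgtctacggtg
Hnrnpa2b1, 36 bases, chr6:51467391-51467426, minus strand: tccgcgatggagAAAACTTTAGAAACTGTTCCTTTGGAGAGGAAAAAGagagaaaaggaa
Hnrnpa2b1, 120 bases, chr6:51464428-51464547, minus strand: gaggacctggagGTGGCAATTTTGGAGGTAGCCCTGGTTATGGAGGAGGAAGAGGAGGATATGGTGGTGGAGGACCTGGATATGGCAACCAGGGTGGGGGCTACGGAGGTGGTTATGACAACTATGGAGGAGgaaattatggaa
The 78-base exon of Ptbp1 and both printed exons of Hnrnpa2b1 have lengths divisible by 3, so that their skipping keeps the reading frame. The 34-base exon of Ptbp1 does not, and the 2 annotated transcripts that skip it are both marked for decay, against 0 of the 4 that carry it. The 36-base exon of Hnrnpa2b1 lies just after the start codon, and the 120-base exon lies in the glycine-rich part of the coding sequence.

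Hnrnpa2b1 event 2 separated the knockdown libraries from Ctr most clearly of the 4 events. Its inclusion was 0.709 and 0.711 in the Raver2 knockdown libraries (sh1 and sh2), 0.718 and 0.708 in the Setd2 knockdown libraries and 0.789 and 0.791 in the Ctr libraries. All 4 knockdown libraries lay below both Ctr libraries (over all events, 24.2% kept the knockdowns apart from Ctr in either direction), with a gap of 0.0701 between the nearest pair, while the libraries of a group differed by 0.00264 for Raver2 knockdown, 0.00996 for Setd2 knockdown and 0.00200 for Ctr. The group means were 0.710 ± 0.00187, 0.713 ± 0.00704 and 0.790 ± 0.00142 in the same order (SD, n = 2 each). Because the libraries are bulk, a shift of splicing within cells and a different mix of cells or of RNA per cell cannot be told apart.

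The difference of this event was -0.0795 ± 0.0144 for Raver2 knockdown against Ctr (SE; 95% interval -0.121 to -0.0384; limma fitted to all events, unadjusted p = 0.00644, adjusted p = 0.153). It was -0.0761 ± 0.0144 for Setd2 knockdown against Ctr (interval -0.117 to -0.0350; limma, unadjusted p = 0.00746, adjusted p = 0.157). With both knockdowns together against Ctr it was -0.0778 ± 0.0124 (interval -0.113 to -0.0422; limma, adjusted p = 0.0997). No test passed the threshold of an adjusted p of 0.05. The event ranked 196 of 4658 by p for Raver2 knockdown and 220 for Setd2 knockdown. The 2 comparisons share both Ctr libraries and are not separate evidence. The main limma fit draws each event's variance towards that of events with a similar mean fraction. Without this trend the same differences passed, with adjusted p = 0.0220 for Raver2 knockdown, 0.0301 for Setd2 knockdown and 0.0149 for both, so the call depends on the variance model.

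Hnrnpa2b1 event 1 showed the opposite order. Its inclusion was 0.247 and 0.236 with Raver2 knockdown, 0.235 and 0.225 with Setd2 knockdown, and 0.191 and 0.174 in Ctr. The knockdown libraries again lay apart from Ctr, here above it, with a gap of 0.0343 against a widest gap of 0.0164 within a group. Such a separation in either direction was seen in 24.2% of all events. The means were 0.242 ± 0.00805 with Raver2 knockdown, 0.230 ± 0.00731 with Setd2 knockdown and 0.183 ± 0.0116 in Ctr (SD, n = 2 each). The difference was 0.0589 ± 0.0198 for Raver2 knockdown against Ctr (SE; 95% interval 0.00237 to 0.115; limma, unadjusted p = 0.0446, adjusted p = 0.404) and 0.0477 ± 0.0198 for Setd2 knockdown (interval -0.00886 to 0.104; limma, adjusted p = 0.520), and neither passed.

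**Figure D2:**
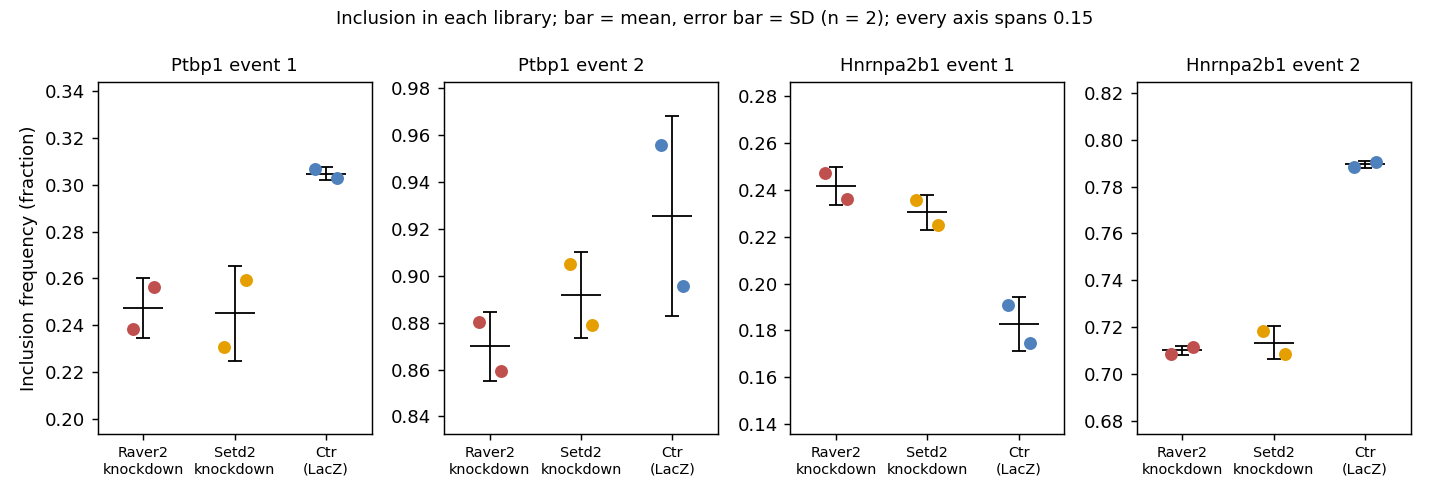
Inclusion frequency (fraction) of the 4 events in each library, with Raver2 knockdown left, Setd2 knockdown in the middle and Ctr right. Points are libraries, bars are means and error bars are SD (n = 2), and each axis spans 0.15 and does not start at 0. Hnrnpa2b1 event 2 sits at 0.708 to 0.718 in the knockdown libraries, below 0.789 and 0.791 in Ctr, and event 1 shows the opposite order.

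The events of Hnrnpa2b1 were close to complements of each other. Their fractions summed to 0.956 and 0.947 with Raver2 knockdown, 0.954 and 0.934 with Setd2 knockdown, and 0.979 and 0.965 in Ctr. Whether they measure the same splicing choice is not known. Both enter the counts of events given below, although they may not be independent. The sums were not constant, and all 4 knockdown libraries lay below both Ctr libraries. Of single events, 24.2% kept the knockdowns apart from Ctr in either direction, and the share among sums was not counted. Of 177 genes with exactly 2 events and no fraction below 0.01 or above 0.99, 29 (16.4%) had sums within 0.07 of 1 in all 6 libraries, a tolerance chosen after the values were seen.

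The events of Ptbp1 did not behave as complements. They summed to 1.12 and 1.12 with Raver2 knockdown, 1.14 and 1.14 with Setd2 knockdown, and 1.26 and 1.20 in Ctr. The sum exceeded 1 in every library and was lowest with Raver2 knockdown, next with Setd2 knockdown and highest in Ctr, without overlap between the groups. The nearest Raver2 and Setd2 libraries (sh1 of each) summed to 1.119 and 1.136. This order was seen in the data and was not tested, and how many other genes order their sums likewise was not counted.

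**Figure D3:**
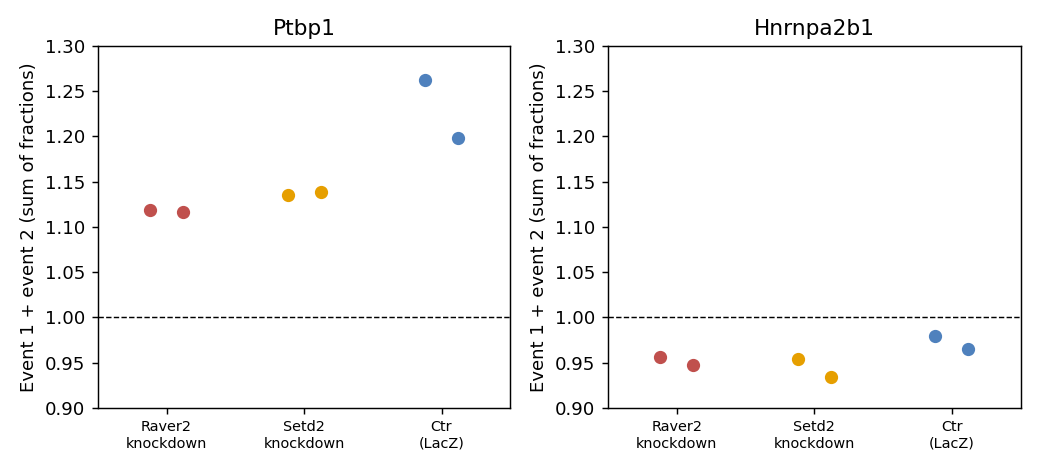
Sum of the fractions of events 1 and 2 in each library (points) for Ptbp1 and Hnrnpa2b1; the axis starts at 0.9 and the dashed line marks 1. Hnrnpa2b1 sums lie just below 1, from 0.934 to 0.979, and Ptbp1 sums lie above it, from 1.12 to 1.26.

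Ptbp1 event 1 had an inclusion of 0.238 and 0.257 with Raver2 knockdown, 0.231 and 0.259 with Setd2 knockdown, and 0.307 and 0.303 in Ctr. All 4 knockdown libraries lay below both Ctr libraries, by at least 0.0432, which exceeds the widest gap of 0.0289 within a group. Over all events, 24.2% kept the knockdowns apart from Ctr in either direction. The difference was -0.0573 ± 0.0297 for Raver2 knockdown against Ctr (SE; 95% interval -0.142 to 0.0277; limma, unadjusted p = 0.131). For Setd2 knockdown against Ctr it was -0.0597 ± 0.0297 (interval -0.145 to 0.0253; limma, unadjusted p = 0.120). For both together it was -0.0585 ± 0.0257 (interval -0.132 to 0.0151; limma, adjusted p = 0.510), so the intervals include 0 in all 3 comparisons.

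Ptbp1 event 2 was the most variable of the 4. Its inclusion was 0.880 and 0.860 with Raver2 knockdown, 0.905 and 0.879 with Setd2 knockdown, and 0.956 and 0.895 in Ctr. The Ctr libraries differed by 0.0602, and Setd2 library sh1 lay above the lower Ctr library, so these groups overlapped. The Raver2 libraries lay below both Ctr libraries by 0.0152, where 44% of all events kept these groups apart in either direction. The difference was -0.0557 ± 0.0257 for Raver2 knockdown against Ctr (SE; 95% interval -0.129 to 0.0178; limma, unadjusted p = 0.101) and -0.0336 ± 0.0257 for Setd2 knockdown (interval -0.107 to 0.0399; limma, unadjusted p = 0.266). The size rested on the Ctr library used. It was -0.0256 for Raver2 knockdown and -0.00353 for Setd2 knockdown without Ctr library 1, and -0.0858 and -0.0638 in the same order without Ctr library 2.

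The hairpins against Raver2 and Setd2 were also set against each other. Raver2 minus Setd2 knockdown was 0.00238 for Ptbp1 event 1 (95% interval -0.0826 to 0.0874), -0.0221 for Ptbp1 event 2 (-0.0956 to 0.0515), 0.0112 for Hnrnpa2b1 event 1 (-0.0453 to 0.0677) and -0.00339 for Hnrnpa2b1 event 2 (-0.0445 to 0.0377). None of the 4 passed (limma, unadjusted p = 0.940, 0.443, 0.602 and 0.826), and the intervals do not exclude differences of several hundredths in either direction. With each library left out in turn, the difference ran from -0.0351 (without Setd2 sh2) to -0.00905 (without Setd2 sh1) for Ptbp1 event 2 and from 0.00554 (without Raver2 sh1) to 0.0169 (without Raver2 sh2) for Hnrnpa2b1 event 1, keeping its sign. For Ptbp1 event 1 it ran from -0.0120 to 0.0168 and for Hnrnpa2b1 event 2 from -0.00837 to 0.00159, on both sides of 0. Hnrnpa2b1 event 1 was higher in both Raver2 libraries than in both Setd2 libraries, by 0.000366 between the nearest pair, which is far less than the 0.0103 between the Setd2 libraries.

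**Figure D4:**
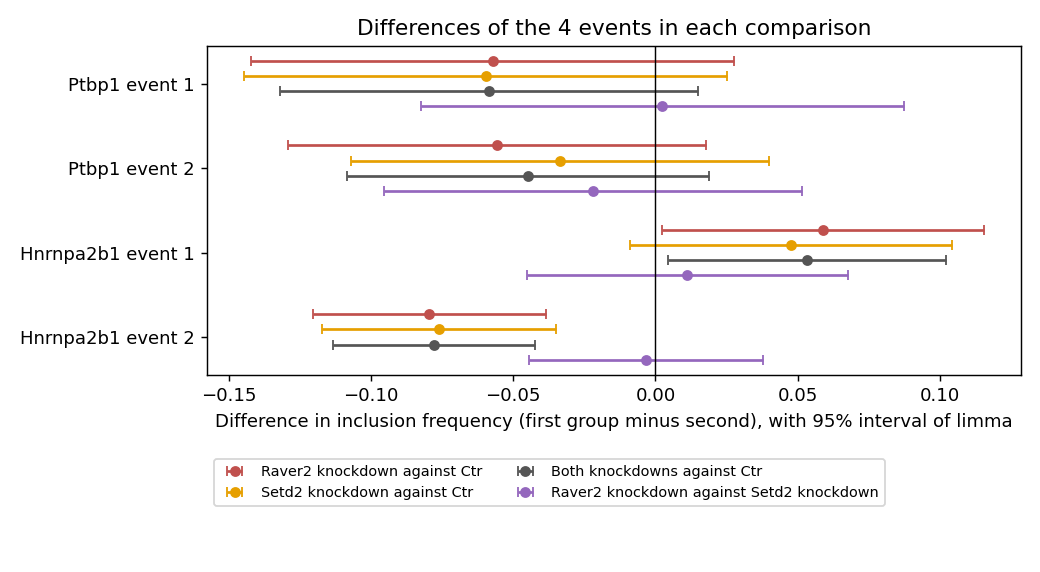
Difference in inclusion frequency of each event (first group minus second) with the 95% interval of limma, for Raver2 knockdown, Setd2 knockdown and both against Ctr and for Raver2 against Setd2 knockdown. For Hnrnpa2b1 event 2 the 3 intervals against Ctr lie below 0, from -0.121 to -0.0350, and all 4 intervals between the knockdowns include 0.

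Counted together, 0 of the 4 events passed an adjusted p of 0.05 in any of the 4 comparisons. Over all events limma called 2.43% for Raver2 knockdown, 2.23% for Setd2 knockdown and 3.07% for both against Ctr, and 0.73% between the knockdowns. At an unadjusted p under 0.05 the count was 2 of 4 for Raver2 knockdown (12% of all events), 1 of 4 for Setd2 knockdown (11.6%), 2 of 4 for both (12.8%) and 0 of 4 between the knockdowns (6.12%). The groups did not overlap in 4 of 4 events for Raver2 knockdown against Ctr, where 44% of all events did not, in 3 of 4 for Setd2 knockdown (42.5%), in 3 of 4 for both (24.2%) and in 1 of 4 between the knockdowns (33.8%). With 4 events, of which the Hnrnpa2b1 pair were near complements, these shares cannot be set apart from the background.

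The measurements were tighter than most. The within-group SD, pooled over the 3 groups, was 0.00429 for Hnrnpa2b1 event 2, 0.00916 for Hnrnpa2b1 event 1, 0.0140 for Ptbp1 event 1 and 0.0281 for Ptbp1 event 2. The median was 0.0377 over the 2000 events with no fraction below 0.01 or above 0.99, called mid-range events here. Of these, 1.40% had a smaller SD than Hnrnpa2b1 event 2, 5.45% than Hnrnpa2b1 event 1, 12.1% than Ptbp1 event 1 and 35.1% than Ptbp1 event 2. The differences themselves were of ordinary size: 26.5% of mid-range events had a larger absolute difference than Hnrnpa2b1 event 2 with both knockdowns against Ctr, and 36.6% a larger one than Ptbp1 event 1.

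**Figure D5:**
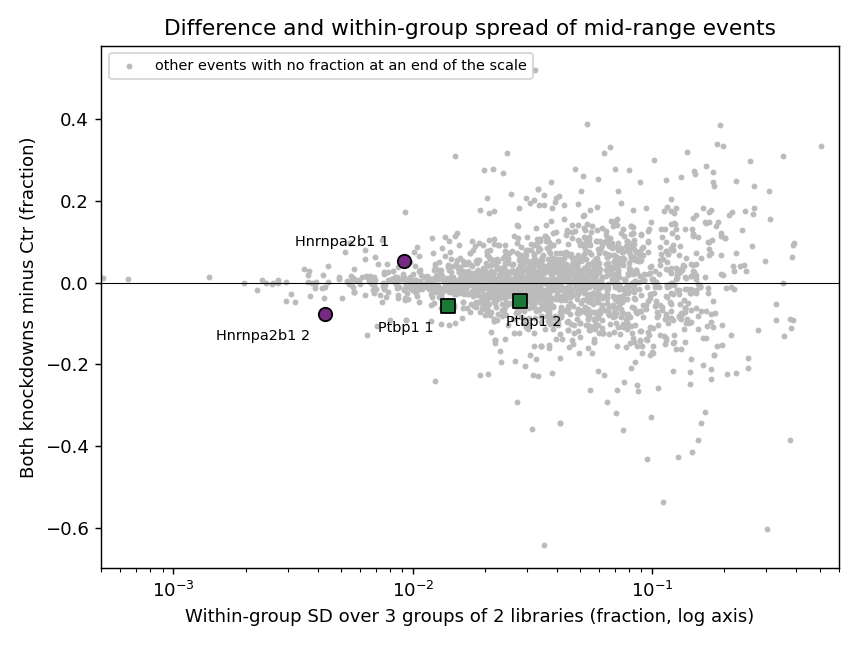
Both knockdowns minus Ctr (fraction) against the within-group SD (fraction, log axis) for the 2000 mid-range events. Grey points are other events, green squares are Ptbp1 and purple circles are Hnrnpa2b1. Hnrnpa2b1 event 2 has a difference of -0.0778 at an SD of 0.00429, left of most events.

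Among the other hnRNP and PTB proteins, Hnrnpm resembled Hnrnpa2b1 event 2. Of the 30 listed genes other than Ptbp1 and Hnrnpa2b1, 10 had comparable events, 25 in all, and 0 passed in either direction in any of the 4 comparisons (limma; 0, 2, 0 and 0 had an unadjusted p under 0.05 for Raver2 knockdown, Setd2 knockdown and both against Ctr, and between the knockdowns). The median difference of these 25 events was -0.00563 for Raver2 knockdown, -0.0142 for Setd2 knockdown, -0.0207 for both and 0.00592 between the knockdowns, beside medians over all events that round to 0. Their median absolute difference was 0.0239, 0.0325, 0.0276 and 0.0152 in the same order, below 0.0423, 0.0412, 0.0399 and 0.0261 over all events. The groups did not overlap in 32% of them for Raver2 knockdown (44% of all events), 44% for Setd2 knockdown (42.5%), 24% for both (24.2%) and 56% between the knockdowns (33.8%). Hnrnpm event 1 was included at 0.317 and 0.310 with Raver2 knockdown, 0.323 and 0.319 with Setd2 knockdown, and 0.398 and 0.419 in Ctr (limma, adjusted p = 0.549 for Raver2 knockdown). Hnrnpab event 1 also lay below Ctr with both knockdowns. It was at 0.447 and 0.453, then 0.449 and 0.429, and 0.482 and 0.480 (limma, adjusted p = 0.887 for Raver2 knockdown). Hnrnpf event 2, from a G-tract-binding hnRNP, was at 0.228 and 0.170, then 0.158 and 0.148, and 0.232 and 0.239 in the same order of groups (adjusted p = 0.372 for Setd2 knockdown). Hnrnpc event 2, from a protein that binds uridine tracts, was at 0.797 and 0.797, then 0.779 and 0.767, and 0.817 and 0.805 (adjusted p = 0.363 for Setd2 knockdown). Event 1 of Hnrnpf and of Hnrnpc went the other way with Raver2 knockdown. Hnrnpf event 1 was at 0.837 and 0.835, then 0.832 and 0.855, and 0.806 and 0.819 (limma, adjusted p = 0.627 for Raver2 knockdown). Hnrnpc event 1 was at 0.909 and 0.906, then 0.912 and 0.890, and 0.889 and 0.892 (adjusted p = 0.668 for Raver2 knockdown). Among non-overlapping events of the 25, 2 were higher and 6 lower with Raver2 knockdown, and 3 higher and 8 lower with Setd2 knockdown. How non-overlapping events split by direction over all events was not counted. Raver2, Setd2, Raver1 and Ptbp2 had 0 listed events in every library, so neither knockdown could be checked in these fractions.

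Other splicing regulators and genes with exons linked to PTB or to hnRNP A1 and A2 also held no call. Of the 22 regulators 9 had comparable events, 33 in all, and of the 20 linked genes 8 had 13 events; 0 passed in each list and comparison (limma). For Raver2 knockdown, Setd2 knockdown and both against Ctr and between the knockdowns, an unadjusted p under 0.05 was seen in 5, 2, 5 and 4 of the 33 events and in 1, 1, 1 and 0 of the 13, where 12%, 11.6%, 12.8% and 6.12% of all events had one. The groups did not overlap in 51.5%, 54.5%, 33.3% and 39.4% of the regulators' events and in 69.2%, 53.8%, 46.2% and 15.4% of the linked genes' events in the same order, beside 44%, 42.5%, 24.2% and 33.8% of all events. The median absolute difference was 0.0202, 0.0197, 0.0183 and 0.0113 for the regulators in that order. For the linked genes it was larger, at 0.0774, 0.129, 0.0886 and 0.0769, beside 0.0423, 0.0412, 0.0399 and 0.0261 over all events. Bin1, which bends membranes and was listed for its link to hnRNP A2/B1 in human cells, had the smallest p of the linked genes against Ctr. Its event 1 was included at 0.0146 and 0.0205 with Raver2 knockdown, 0.0184 and 0.0178 with Setd2 knockdown, and 0.00186 and 1.9e-08 in Ctr (limma, adjusted p = 0.0974 and 0.0878). Both Ctr values lay below 0.01, so this event is not mid-range, and its difference was only 0.0169 for both knockdowns against Ctr. Cacna1c event 3 came second, at 0.111 and 0.236, then 0.0964 and 0.821, and 0.951 and 0.887 (limma, adjusted p = 0.434 and 0.699). Its difference was -0.746 for Raver2 knockdown and -0.460 for Setd2 knockdown, where the hairpins lay far apart. Of the 13 events, 9 had a difference below 0 with Raver2 knockdown and 8 with Setd2 knockdown. Mbnl1 event 1, from a muscleblind splicing regulator, was at 0.0422 and 0.0615, then 0.0607 and 0.0416, and 0.113 and 0.0836 in the same order of groups (adjusted p = 0.382 and 0.370). Regulator events with smaller p rose instead. Tardbp event 7 was at 0.985 and 0.981, then 0.973 and 0.965, and 0.960 and 0.955 (limma, adjusted p = 0.171 for Raver2 knockdown). Celf1 event 3 was at 0.845 and 0.864, then 0.871 and 0.878, and 0.824 and 0.829 (adjusted p = 0.202 for Setd2 knockdown). Among non-overlapping regulator events, 11 were higher and 6 lower with Raver2 knockdown, and 13 higher and 5 lower with Setd2 knockdown. These events come from only 9 genes. The split by direction over all events was not counted, so neither list can be said to lean unusually. The events listed in the linked genes are not known to be the PTB-dependent exons.

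The events with the most similar pattern were sought among 1996 mid-range events of other genes by Pearson correlation over the 6 libraries, as a description without a test. For Hnrnpa2b1 event 2 these were Sra1 event 1 (r = 0.995), Lrrfip1 event 1 (0.989) and Hnrnpm event 1 (0.988). Hnrnpa2b1 event 1 was followed most closely by Uspl1 event 3 (r = 0.995), Dntt event 1 (0.988) and Depdc1a event 1 (0.977). Ptbp1 event 1 was nearest to Sh3kbp1 event 1 (r = 0.975), Polr2a event 1 (0.973) and Slbp event 1 (0.971), and Ptbp1 event 2 to Wbp1 event 2 (r = 0.977), Tmem161b event 3 (0.964) and Trim26 event 1 (0.961). Correlations over 0.95 were reached by 27, 16, 12 and 6 events in the same order, and the 6 libraries fall into 3 groups that share a treatment, so a common step between knockdown and Ctr libraries suffices for a high value. Dntt, the terminal transferase of developing lymphocytes, shows how such a step looks: it was included at 0.149 and 0.134 with Raver2 knockdown, 0.134 and 0.130 with Setd2 knockdown, and 0.0817 and 0.0768 in Ctr.

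Each library listed between 4777 and 4949 events, in 2765 to 2857 genes; read depth is unknown, so no counting interval can be given. Of 10 marker genes each, 3 thymic epithelial (Aire, Cd40 and Cd74), 2 fibroblast (Fn1 and Postn) and 4 leukocyte genes (Cd68, Cd8a, Lck and Ptprc) had comparable events; a listed event carries no expression level, so the cell types could not be checked by it, and their part in the results was not tested. No label states that the replicate libraries are from different mice or cultures, so the p-values measure the spread between these libraries, technical or not, and for a knockdown the spread includes the difference between its hairpins.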

How the data were processed

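Total RNA of sorted cells was amplified with a low-input SMART-seq kit and made into transposase-based libraries, per the labels' protocols. The values deposited by the authors are fractions, 1 inclusion frequency per event and library. Trimmomatic 0.39, TopHat2, Cufflinks and build mm10 are named in the submitters' processing notes without role or order; the method behind the fractions and any coverage filter are not given in the sources used. Low-input amplification and thin coverage can both widen the spread of a fraction.

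Events were matched between libraries by gene symbol and order, which assumes the same order in every table. Where genes had several events, fractions correlated at 0.742 to 0.802 between libraries at the same position and at 0.0863 to 0.133 after a shift by 1 place. Of 2898 genes, 213 not listed with equal numbers in all 6 libraries were left out. limma 3.58.1 (R 4.3.3) was fitted to the fractions of all 4658 events with a mean per group and a variance trend, with two-sided contrasts, Benjamini-Hochberg adjustment over all events and a threshold of 0.05. The steps were tested on simulated data, where the planted differences were larger than those of the 4 events. That test does not bear on power for differences of the size seen here. Alternatives were a logit scale (offset 0.01), an arcsine square-root scale, no trend, mid-range events only, repeated events counted once, only the 4 libraries compared, each library left out, and a hairpin-number block. Tables were read with Python 3.11.15 and pandas 2.3.3.

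All events of both genes are named. From each list the rule took genes past the threshold or else the 3 smallest p per comparison, of which the text gives some, and for each event the 3 most correlated events of other genes. Members and lists were chosen with earlier results of these data known. Exons come from GENCODE M21 (mm10).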

Additional observations from a re-analysis of the deposited data

How the results depend on the processing

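Over all alternatives, 186 of 192 differences kept their direction and their side of the threshold, 3 passed that had not, and 3 turned their sign. Many of the 192 could not change direction. Dropping the trend, restricting the events or libraries fitted, or adding the block leaves the difference itself unchanged. So does leaving out a library of a group not compared. The total therefore overstates how firmly the directions hold. Without the variance trend, Hnrnpa2b1 event 2 passed for Raver2 knockdown (difference -0.0795), Setd2 knockdown (-0.0761) and both against Ctr (-0.0778), which makes the count of passing events 1 in each of these comparisons in place of 0. Its adjusted p ranged from 0.0220 to 0.336, from 0.0301 to 0.352 and from 0.0149 to 0.249 over the alternatives. With each library left out in turn, the difference between Raver2 and Setd2 knockdown ran from -0.0120 to 0.0168 for Ptbp1 event 1 and from -0.00837 to 0.00159 for Hnrnpa2b1 event 2, turning its sign without Setd2 library 1 in both events and without Raver2 library 2 in Ptbp1 event 1; the cause was not tested. Where a group was left with 1 library, that library was assumed to vary like the other groups.

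The hairpin numbers name different hairpins and do not pair the libraries. Their deviations correlated at 0.0146 between the targets, and with a replicate block 0 of the 4 events passed between the knockdowns (difference -0.00339 for Hnrnpa2b1 event 2), while the block took the count over all events to 0, against 34. The counts over all events that serve as background moved widely. For Raver2 knockdown, Setd2 knockdown, both against Ctr and between the knockdowns they were 113, 104, 143 and 34, against 10, 6, 21 and 0 with mid-range events only. With only the 4 libraries compared they were 75, 0 and 46 for the first, second and last of these. Leaving out a library gave 74 to 291, 48 to 279, 101 to 297 and 46 to 119, with the highest of the first 3 without Ctr library 1. Unknown read depth limits all values.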
